A study of Mus musculus with 24 samples.

Results

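The genes described here are 32 genes of the extracellular matrix of fat, taken by symbol from the symbol columns of both count tables: 6 fibrillar collagen chains, 4 basement membrane collagen chains, 5 chains of collagen VI and of fibril-associated collagens, 4 genes of a collagen chaperone and crosslinking enzymes, 3 matrix metalloproteinases, 3 metalloproteinase inhibitors, 6 matricellular and adhesive glycoproteins, and 1 growth factor. They were 32 of the 38013 genes present in both tables, and all 32 passed the filter on low counts in each of the 5 comparisons. Messenger RNA of whole inguinal subcutaneous white adipose tissue was sequenced from C57BL/6J mice with a transgene that encodes γ1, a regulatory subunit of the energy-sensing AMP-activated protein kinase (AMPK). The groups were WT-Tg on chow at 16 weeks of age, D316A-Tg on chow at 16 weeks, WT-Tg on 45% high-fat diet (HFD) at 24 weeks and D316A-Tg on HFD at 24 weeks, with 6 libraries each. The transgene was wild type in WT-Tg and carried the D316A change in D316A-Tg mice, so all 4 groups were transgenic and a non-transgenic group was not analysed here. The promoter that drives the transgene is not given in the labels, nor do they say whether each library is a different mouse. The p-values therefore measure no more than the spread over these samples, which may be technical.

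The matrix of white fat holds each adipocyte in a basement membrane built on a collagen IV network, with fibrils of collagens I, III and V and beaded filaments of collagen VI between the cells. Collagen chains are folded in the endoplasmic reticulum with the help of the chaperone encoded by Serpinh1, are secreted, and are crosslinked by the lysyl oxidase family (Lox, Loxl1, Loxl2). Matrix metalloproteinases cut matrix proteins, tissue inhibitors of metalloproteinases (Timp genes) block them, and transforming growth factor beta 1 (Tgfb1) is a known inducer of collagen genes in fibroblasts.

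Libraries held 13254536 to 22748132 counts. Markers of other cell types separated libraries within groups, and collagen levels moved with them. The summed level of the 8 matched B lymphocyte markers was 178 to 1646 counts per 1000000 counts (CPM) in 11 libraries, a set defined from the data and called lymphocyte-rich here, and 2.14 to 36.1 CPM in the other 13. Lymphocyte-rich libraries were, on chow, numbers 1, 2, 3 and 4 of WT-Tg with 8 and 11 of D316A-Tg, and, on HFD, number 3 of WT-Tg with 7, 8, 9 and 11 of D316A-Tg, that is 4 against 2 on chow and 1 against 4 on HFD. The summed level of 12 skeletal muscle markers was, on chow, 33.6 to 11039 CPM for WT-Tg against 41.1 to 549 CPM for D316A-Tg and, on HFD, 46.5 to 248 CPM for WT-Tg against 266 to 22152 CPM for D316A-Tg. Mature adipocyte markers such as Adipoq were present in all 24 libraries, with summed levels of 11289 to 35369, 15680.0 to 52639, 31331 to 42349 and 27152 to 41284 CPM in the same order of groups, and the 8 fibroblast and adipocyte progenitor markers summed to 505 to 627, 289 to 574, 423 to 654 and 276 to 420.1 CPM. No matched marker of any of the 11 marker lists was at 0 in all 24 libraries. In whole tissue, fewer cells of a type and less RNA per cell cannot be told apart.

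The 32 matrix genes took a median of 0.837% of all counts in WT-Tg and 0.775% in D316A-Tg on chow, and 2.19% and 0.999% on HFD. Within each group the lymphocyte-rich libraries were the ones with the lower share. In WT-Tg on chow the share was 0.622 to 0.914% in the 4 lymphocyte-rich and 1.32 to 1.72% in the 2 lymphocyte-poor libraries, and in D316A-Tg on HFD it was 0.518 to 1.01% in 4 and 2.16% in each of 2. The mean log2 CPM of the fibrillar collagens spanned, on chow, 7.59 to 9.55 for WT-Tg against 7.12 to 8.97 for D316A-Tg and, on HFD, 9.08 to 10.07 against 7.53 to 9.49. The comparisons below were therefore also fitted on the lymphocyte-poor libraries alone and with a term for the lymphocyte-rich ones (the lymphocyte term).

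**Figure D1:**
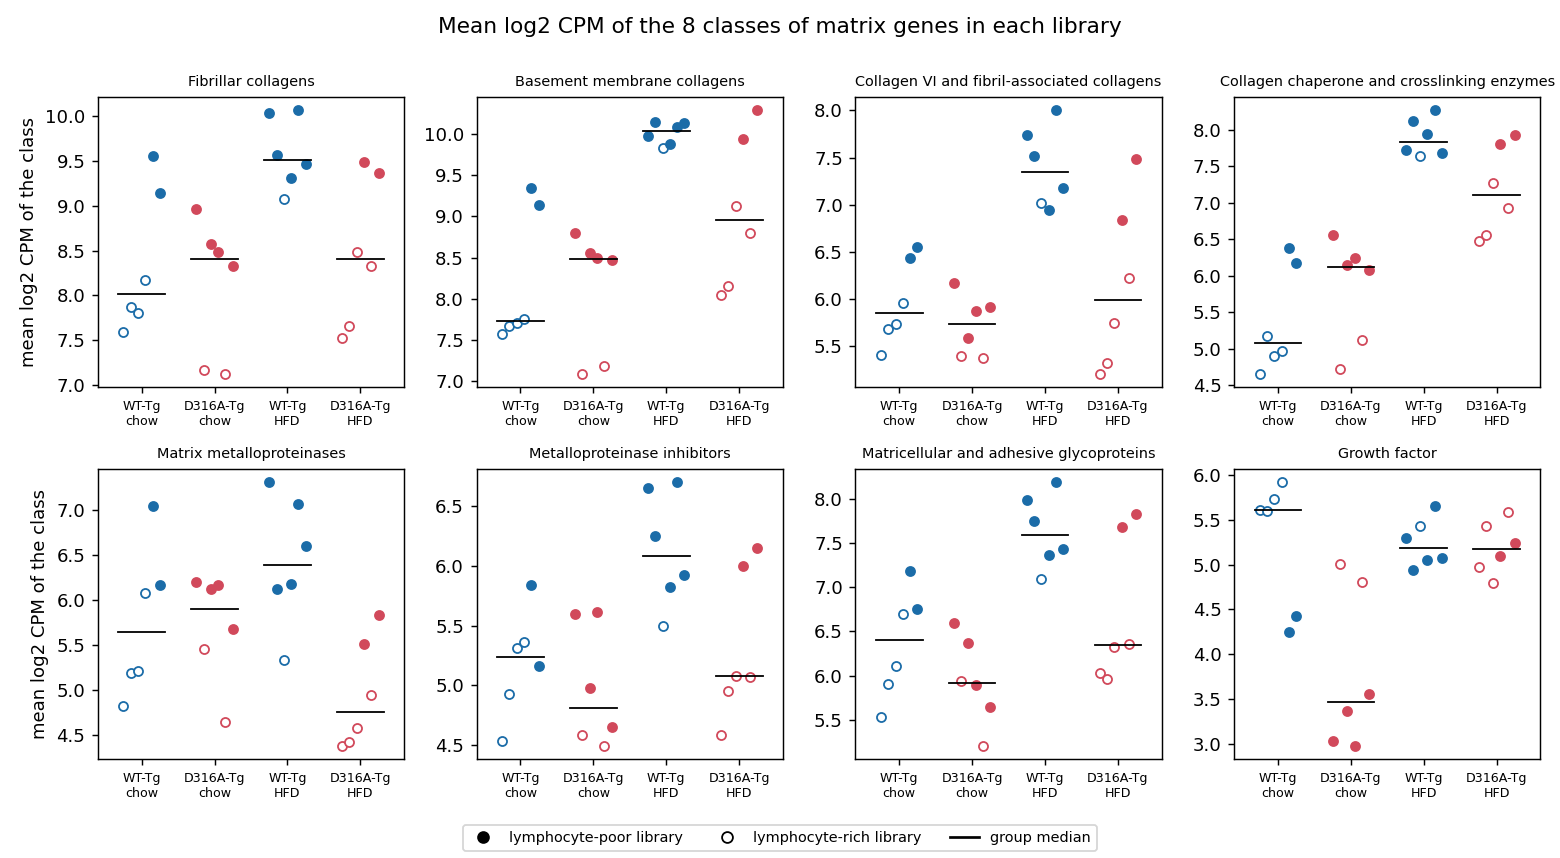
Mean log2 CPM of each of the 8 classes (vertical axis) in the 24 libraries, by group (horizontal axis); filled points are lymphocyte-poor libraries, open points lymphocyte-rich libraries and lines group medians. In the basement membrane class the 6 WT-Tg HFD libraries lie at 9.83 to 10.14, above the WT-Tg chow libraries at 7.58 to 9.34, and the open points lie low within both chow groups.

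Levels per length were compared as mean CPM per kilobase of exon, over the 6 libraries of a group. The length joins all annotated exons of a gene, whichever transcripts are present, so the order between genes depends in part on annotation. Sparc, which encodes a collagen-binding glycoprotein of basement membranes, had the highest level of the 32 in each group, at 466 and 494 CPM per kilobase on chow for WT-Tg and D316A-Tg and 1828 and 1244 on HFD. Col3a1, Serpinh1, Col4a1 and Col4a2 followed in every group, in an order that differed between groups. Col3a1 stood at 151, 147, 304 and 122 CPM per kilobase in that order of groups and Serpinh1 at 133, 189.6, 347 and 173, and neighbours in this order overlapped between the libraries of a group. Tnc, which encodes the adhesion-modulating glycoprotein tenascin C, was among the lowest, at 2.39, 0.868, 3.01 and 1.64 CPM per kilobase. Exons of Timp3 overlap the opposite-strand gene Syn3 over 21.3% of their length, and whether counting used strand is not given, so Timp3 counts are uncertain. For the other 31 genes this share was at most 5.70% (Loxl2).

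On chow, Tnc was lower in D316A-Tg than in WT-Tg and was the only one of the 32 genes that passed the test (1 lower, 0 higher, adjusted p below 0.05 over all genes). Over all 15249 genes tested, 3.25% were called lower and 5.30% higher. Of the 32 genes 21 had a negative log2 fold change, with a median of -0.20 against -0.074 over all genes. Tnc (ENSMUSG00000028364, chromosome 4, 63959785 to 64047015, minus strand, mm10) ranged from 13.5 to 25.6 CPM with a median of 17.4 in WT-Tg and from 1.69 to 13.1 CPM with a median of 6.57 in D316A-Tg. Every D316A-Tg library was below every WT-Tg library, as in 1.68% of all genes tested. Its log2 fold change (log2 FC), by edgeR's quasi-likelihood test as for all adjusted p of genes below, was -1.50 (SE 0.42, adjusted p = 0.0491). The adjusted p was above 0.05 when any 1 library other than D316A-Tg 8 was left out (WT-Tg 1, 2, 3, 4, 5 or 6, or D316A-Tg 7, 9, 10, 11 or 12), with log2 fold changes that stayed between -1.85 and -1.30 and 0.901 to 12.2% of all genes called, while leaving out D316A-Tg 8 gave 3 calls, all lower, with 21.9% of all genes called. With the lymphocyte term Tnc was at log2 FC -1.42 (SE 0.39, adjusted p = 0.0202), and with the skeletal muscle score as a covariate at log2 FC -1.34 (SE 0.43, adjusted p = 0.0904), where 0 of the 32 and 1.47% of all genes were called. Beside this, 3 of 7 smooth muscle and pericyte, 2 of 7 endothelial and 1 of 8 fibroblast and progenitor markers were lower in D316A-Tg on chow, whose part was not tested.

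The 250 bases upstream of the starts of Tnc, Mmp3, Mmp14 and Serpinh1 are printed because the genotype results turn on these genes. They are RefSeq sequences of GRCm38.p6 (mm10), written 5′ to 3′ on the strand of the gene, and 22 of the 32 genes had an entry. Capitals mark matches on either strand to TGANTCA, the letters of an AP-1 site, to GGGCGG, those of an Sp1 site, to CCAAT, the box of that name, and to TATAAA, the TATA box. Over all 32851 windows of this length, 6.75% held the AP-1, 32.7% the Sp1, 33.8% the CCAAT and 12.4% the TATA letters. Of the 26 windows of the 22 genes, in the same order, 2, 15, 9 and 6 did. The Tnc window is chr4:64047016-64047265 on the minus strand, the Mmp3 window chr9:7445572-7445821 on the plus strand, the Mmp14 window chr14:54431348-54431597 on the plus strand and the Serpinh1 window chr7:99353240-99353489 on the minus strand.
Tnc: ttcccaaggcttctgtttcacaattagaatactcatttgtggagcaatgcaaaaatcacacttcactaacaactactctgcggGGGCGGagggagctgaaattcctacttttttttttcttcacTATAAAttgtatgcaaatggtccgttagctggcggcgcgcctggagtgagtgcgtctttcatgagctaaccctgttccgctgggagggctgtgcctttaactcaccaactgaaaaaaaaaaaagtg
Mmp3: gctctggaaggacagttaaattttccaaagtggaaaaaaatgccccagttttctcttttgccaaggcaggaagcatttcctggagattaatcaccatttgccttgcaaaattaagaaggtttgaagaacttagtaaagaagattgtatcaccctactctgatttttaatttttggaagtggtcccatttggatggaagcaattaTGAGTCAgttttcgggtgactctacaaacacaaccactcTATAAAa
Mmp14: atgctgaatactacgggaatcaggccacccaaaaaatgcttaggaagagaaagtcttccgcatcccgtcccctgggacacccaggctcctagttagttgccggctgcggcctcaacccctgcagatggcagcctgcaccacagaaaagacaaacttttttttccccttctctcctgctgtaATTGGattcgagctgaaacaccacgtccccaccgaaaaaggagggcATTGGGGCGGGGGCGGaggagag
Serpinh1: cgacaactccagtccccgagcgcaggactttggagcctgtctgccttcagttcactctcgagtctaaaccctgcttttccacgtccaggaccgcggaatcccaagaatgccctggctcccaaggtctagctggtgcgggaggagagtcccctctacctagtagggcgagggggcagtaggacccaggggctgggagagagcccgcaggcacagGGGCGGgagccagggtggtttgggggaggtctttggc
The Tnc window holds the Sp1 letters with their first base 167 bases before the start and the TATA letters 126 bases before it. Mmp3 has an AP-1 match 46 and a TATA match 7 bases before its start. Mmp14 has CCAAT on the reverse strand at 69 and 23 and Sp1 matches at 19 and 13 bases before its start, where the second CCAAT match and the first Sp1 match share a base, and Serpinh1 has an Sp1 match at 37. These are letter matches only, and RefSeq lists a second Tnc start whose overlapping window is not printed.

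Beside Tnc, the other matrix genes with the lowest p on chow were Thbs1, Tgfb1 and Col6a1, none of which passed the test. Thbs1, which encodes the matricellular protein thrombospondin 1, a known activator of latent transforming growth factor beta, ranged from 8.90 to 36.1 CPM with a median of 20.3 in WT-Tg and from 5.29 to 17.1 CPM with a median of 7.76 in D316A-Tg, at log2 FC -1.24 (SE 0.37, adjusted p = 0.0565) with overlapping groups. Tgfb1 ranged from 18.9 to 60.7 CPM with a median of 48.7 in WT-Tg and from 7.74 to 32.2 CPM with a median of 10.9 in D316A-Tg. Tgfb1 stood at log2 FC -1.42 (SE 0.47, adjusted p = 0.0763). Its level went with the lymphocyte markers in both genotypes on chow, but not on HFD, as given below. In WT-Tg it was 48.3 to 60.7 CPM in the 4 lymphocyte-rich and 18.9 to 21.4 CPM in the 2 lymphocyte-poor libraries, and in D316A-Tg 27.9 to 32.2 CPM in 2 and 7.74 to 11.7 CPM in 4, so that D316A-Tg was below WT-Tg in each kind of library. Such separation of small sets was seen in many of the 32 genes, as given below.

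Collagen chains did not pass the test on chow, and the 6 fibrillar chains were at log2 fold changes of -0.53 to -0.10 (class median -0.43) and the 4 basement membrane chains at -0.35 to -0.091 (median -0.22). The widest difference among fibrillar chains was that of Col1a1 and among basement membrane chains that of Col18a1, which encodes the source of endostatin. Col1a1, the main chain of fibrillar collagen I, ranged from 147 to 689 CPM with a median of 296 in WT-Tg and from 97.2 to 451 CPM with a median of 245 in D316A-Tg. Col1a1 stood at log2 FC -0.53 (SE 0.41, adjusted p = 0.395). Col18a1 ranged from 66.2 to 303 CPM with a median of 95.6 and from 39.7 to 176 CPM with a median of 108. Col18a1 stood at log2 FC -0.35 (SE 0.44, adjusted p = 0.587). Both sets of libraries overlapped widely.

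Once lymphocyte-rich libraries had a term of their own, 17 of the 32 genes were lower in D316A-Tg on chow and 0 were higher, where 14.2% of the 16202 genes tested were called lower and 27.1% in either direction. The median log2 fold change of the 32 genes was -0.51 against -0.040 over all genes. The 17 were all 6 fibrillar chains, all 4 basement membrane chains, Col6a1, Col6a2 and Col6a3 of collagen VI, Sparc, Thbs1, Tnc and Tgfb1. None of the 4 chaperone and crosslinking genes, the 3 metalloproteinases and the 3 inhibitors was called. In the same fit 7 of 7 endothelial and 4 of 7 smooth muscle and pericyte markers were lower. Col6a1, which encodes one of the chains of the microfibrillar collagen VI, was 175 to 232 CPM in lymphocyte-rich and 467 to 523 CPM in lymphocyte-poor WT-Tg libraries, against 103 to 104 and 213 to 252 CPM in D316A-Tg. Within either kind of library the genotypes did not overlap for Col6a1. This was not particular to Col6a1. Without overlap, 13 of the 32 genes were lower in D316A-Tg in the lymphocyte-poor libraries, and 17 were lower and 1 higher in the lymphocyte-rich ones. The share of all genes that separate in such small sets is not given here. Col6a1 stood at log2 FC -0.78 (SE 0.31, adjusted p = 0.114) without the term and log2 FC -1.11 (SE 0.092, adjusted p = 9.74e-05) with it. Col1a1 was at log2 FC -0.98 (SE 0.26, adjusted p = 0.0155) with the term, Col5a1 at log2 FC -0.87 (SE 0.11, adjusted p = 6.78e-04) and Col15a1, a collagen of the outer basement membrane zone, at log2 FC -0.68 (SE 0.12, adjusted p = 0.00226).

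In the lymphocyte-poor chow libraries alone, 2 of WT-Tg and 4 of D316A-Tg, 9 of the 32 genes were lower and 0 higher, beside 7.71% of genes called lower and 7.59% higher. They were Col5a1, Col5a2, Col5a3, Col4a1, Col4a2, Col15a1, Col6a1, Col6a2 and Tgfb1. Tgfb1 was at log2 FC -1.12 (SE 0.19, adjusted p = 0.0149) there, and Serpinh1, at 537 to 577 CPM in WT-Tg and 511 to 658 CPM in D316A-Tg, was not called. The WT-Tg side of this comparison rests on libraries 5 and 6.

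**Figure D2:**
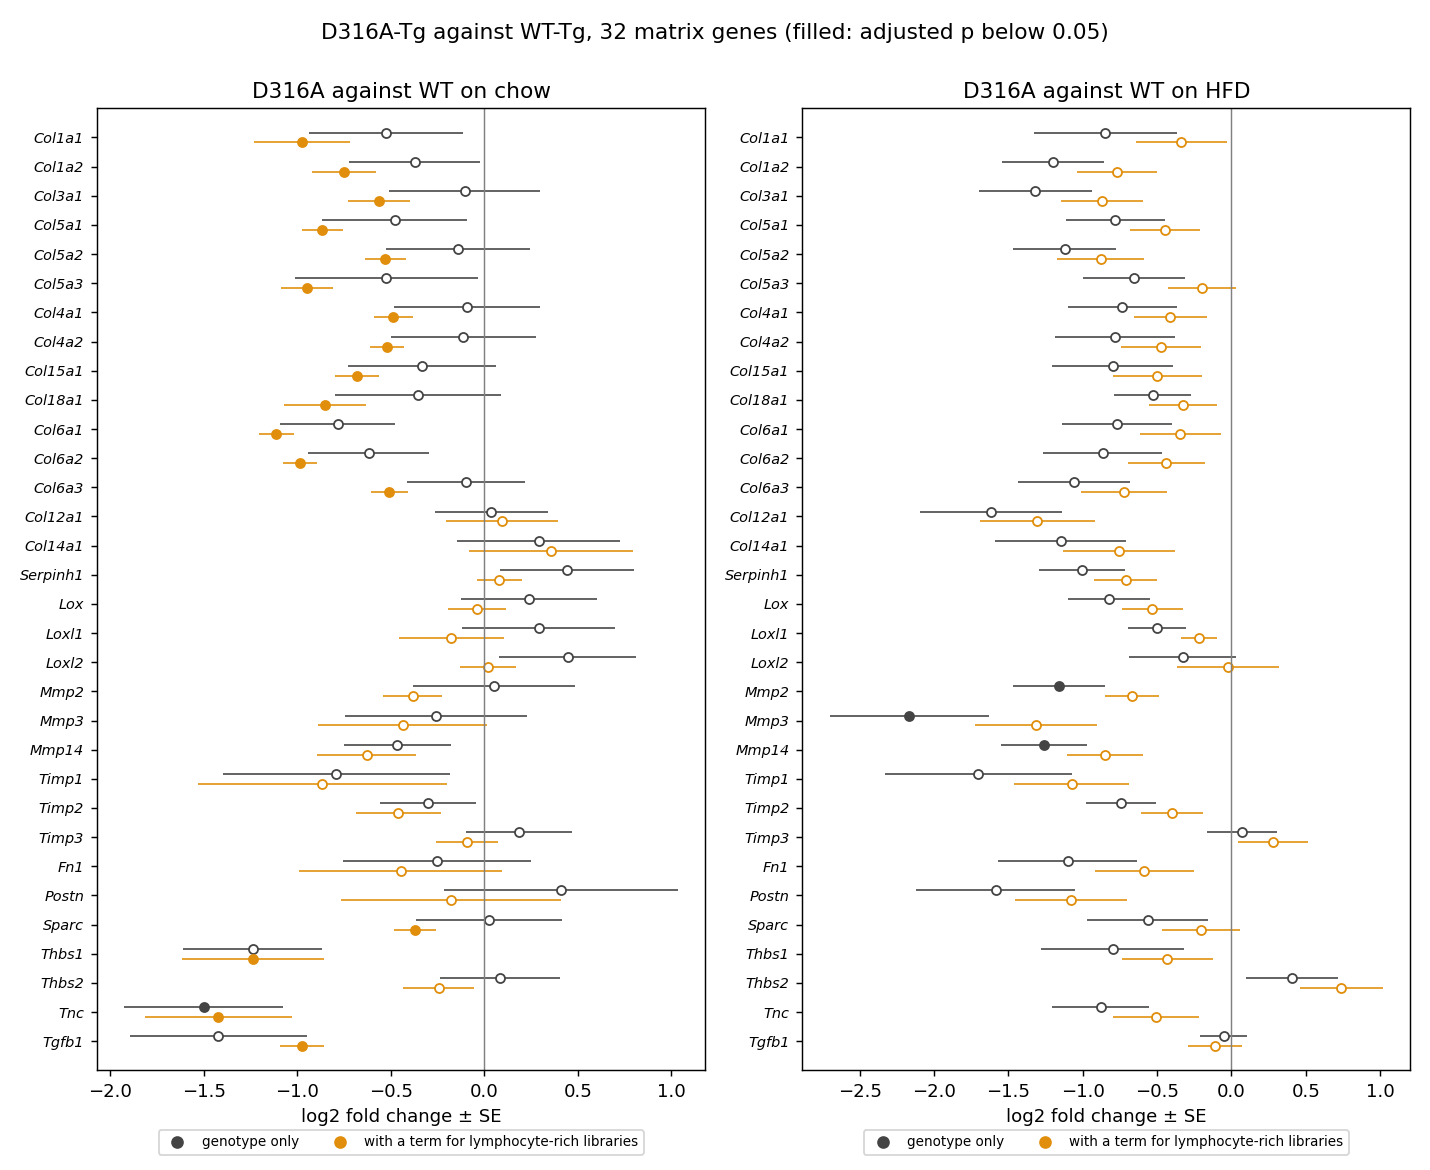
Log2 fold change with its SE (horizontal axis) of D316A-Tg against WT-Tg for each of the 32 genes (vertical axis) on chow and on HFD, fitted with genotype only (grey) or adding the lymphocyte term (orange); filled points have an adjusted p below 0.05. On chow 1 gene is filled in grey and 17 in orange, and on HFD 3 in grey and 0 in orange.

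Of the chaperone and crosslinking genes on chow, Loxl2 had the widest difference. It ranged from 2.69 to 8.07 CPM with a median of 3.45 in WT-Tg and from 3.01 to 10.7 CPM with a median of 7.17 in D316A-Tg, at log2 FC 0.45 (SE 0.37, adjusted p = 0.416), and at log2 FC 0.019 (SE 0.15, adjusted p = 0.940) with the lymphocyte term. Mmp14, the membrane-bound metalloproteinase, ranged from 38.3 to 114 CPM with a median of 56.9 and from 29.1 to 72.7 CPM with a median of 51.0. Mmp14 stood at log2 FC -0.46 (SE 0.29, adjusted p = 0.290). Timp1, a secreted inhibitor at low levels in all 4 groups, was at log2 FC -0.79 (SE 0.61, adjusted p = 0.386). None of these 3 genes passed the test and their groups overlapped.

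Of 106 other matrix genes in 8 lists, 98 were tested on chow, of which 6 were lower and 1 was higher in D316A-Tg. The lower genes were Lama5, a laminin chain of basement membranes (-0.99), the elastic fibre genes Eln (-0.88, elastin) and Ltbp4 (-0.82), the fibronectin receptor chain Itga5 (-0.94), the crosslinking enzyme Loxl3 (-0.61) and the proteoglycan Bgn (-0.60, biglycan), all as log2 fold changes. The higher gene was Itga1, a collagen receptor chain (0.72). The lists of other collagens (12 tested), other metalloproteinases (14) and the transforming growth factor beta pathway (12) held no called gene. With the lymphocyte term 31 of 100 were lower and 4 higher.

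On HFD, all 3 metalloproteinases, Mmp2, Mmp3 and Mmp14, were lower in D316A-Tg than in WT-Tg, and no other of the 32 genes passed the test (3 lower, 0 higher). Over the 14649 genes tested, 3.96% were called lower and 4.51% higher. Of the 32 genes 30 had a negative log2 fold change, with a median of -0.83 against 0.0077 over all genes, the exceptions being Timp3 (0.070) and Thbs2 (0.41). No gene of the 32 separated the 6 libraries of one genotype from the 6 of the other, as 3.42% of all genes tested did. Beside this, 12 of 12 skeletal muscle markers were higher in D316A-Tg (median log2 fold change 6.02), and 4 of 8 macrophage, 4 of 7 endothelial and 3 of 8 fibroblast and progenitor markers were lower, the last with summed levels that did not overlap between genotypes. Their part in the lower matrix genes was not tested beyond the fits given below.

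Mmp3 (ENSMUSG00000043613, chromosome 9, 7445822 to 7455975, plus strand), which encodes stromelysin 1, a protease of many matrix proteins, ranged from 18.99 to 169 CPM with a median of 65.1 in WT-Tg and from 9.17 to 41.0 CPM with a median of 11.5 in D316A-Tg. It stood at log2 FC -2.17 (SE 0.53, adjusted p = 0.0340). Mmp14 (ENSMUSG00000000957, chromosome 14, 54431612 to 54445364, plus strand), the membrane-bound protease that activates the proenzyme of Mmp2, ranged from 39.2 to 111 CPM with a median of 63.3 and from 17.9 to 43.0 CPM with a median of 28.9. Mmp14 stood at log2 FC -1.26 (SE 0.29, adjusted p = 0.0278). Mmp2 (ENSMUSG00000031740, chromosome 8, 92827291 to 92853420, plus strand), gelatinase A, ranged from 86.4 to 235 CPM with a median of 160.3 and from 41.7 to 126 CPM with a median of 64.9. Mmp2 stood at log2 FC -1.16 (SE 0.31, adjusted p = 0.0414). In each of the 3 genes every D316A-Tg library was below every WT-Tg library other than WT-Tg 3, the 1 lymphocyte-rich WT-Tg library. D316A-Tg 10 and 12, the lymphocyte-poor ones, were the highest of their group in each.

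The 3 calls depended on which libraries and terms were in the fit. With the lymphocyte term 0 of the 32 genes were called, where 0.403% of genes were called lower and 0.211% higher, and Mmp3, Mmp14 and Mmp2 were at log2 FC -1.31 (SE 0.41, adjusted p = 0.131), log2 FC -0.85 (SE 0.26, adjusted p = 0.122) and log2 FC -0.67 (SE 0.18, adjusted p = 0.0969). In the lymphocyte-poor libraries alone, 5 of WT-Tg and 2 of D316A-Tg, 0 of the 32 and 0% of all genes were called in either direction. There Mmp2 was 143 to 235 CPM in the 5 and 105 to 126 CPM in the 2, Mmp14 47.6 to 111 and 38.1 to 43.0 CPM, and Mmp3 43.7 to 169 and 19.5 to 41.0 CPM, with no overlap in any of the 3. In this split 6 of the 32 genes, these 3 among them, were lower in D316A-Tg without overlap and 1 was higher. The share of all genes that separate between 5 and 2 libraries is not given here, so no conclusion is drawn from the separation. Leaving out WT-Tg 1, 4, 5 or 6 or D316A-Tg 7, 8, 9 or 11 gave 0 calls, with 2.19 to 4.34% of all genes called, and leaving out WT-Tg 2 gave 2, with 4.07%. Leaving out WT-Tg 3 or D316A-Tg 10 gave 7 and leaving out D316A-Tg 12 gave 23, where 12.1%, 7.54% and 26.3% of all genes were called. With the skeletal muscle score as a covariate 0 of the 32 and 0 of all genes were called, and Mmp3, Mmp14 and Mmp2 were at log2 FC -1.96, -1.22 and -1.29.

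Collagen chains did not pass the test on HFD, where all 15 had negative values. Col1a2, the partner chain of Col1a1, ranged from 544 to 1413 CPM with a median of 753 in WT-Tg and from 195 to 615 CPM with a median of 367 in D316A-Tg. Col1a2 stood at log2 FC -1.20 (SE 0.34, adjusted p = 0.0502). Col3a1, the chain of the homotrimeric fibrillar collagen III, ranged from 1802 to 4548 CPM with a median of 2392 and from 549.6 to 2209 CPM with a median of 1010.2. Col3a1 stood at log2 FC -1.32 (SE 0.38, adjusted p = 0.0516). Within D316A-Tg, Col3a1 was 549.6 to 1060.2 CPM in the 4 lymphocyte-rich libraries and 1788 to 2209 CPM in the 2 lymphocyte-poor ones. Col12a1, of a fibril-associated collagen, ranged from 28.1 to 84.5 CPM with a median of 37.4 and from 6.97 to 43.4 CPM with a median of 9.60, at log2 FC -1.62 (SE 0.48, adjusted p = 0.0552), with D316A-Tg 12 the only library of its group inside the WT-Tg range. Class medians were -0.98 for fibrillar, -0.76 for basement membrane and -1.06 for collagen VI and fibril-associated chains. In the lymphocyte-poor libraries alone the basement membrane median was 0.068 and the fibrillar median -0.23.

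Col15a1 had the widest difference of the basement membrane class, at log2 FC -0.80 (SE 0.41, adjusted p = 0.197), and in the lymphocyte-poor libraries it was at 0.055. Serpinh1 ranged from 711 to 1000.4 CPM with a median of 847 in WT-Tg and from 218 to 838 CPM with a median of 367 in D316A-Tg. Serpinh1 stood at log2 FC -1.01 (SE 0.29, adjusted p = 0.0514). Timp1 was at log2 FC -1.70 (SE 0.63, adjusted p = 0.0977), and Postn, which encodes the matricellular protein periostin, ranged from 143 to 580.4 CPM with a median of 197 and from 39.1 to 238 CPM with a median of 55.1. Postn stood at log2 FC -1.58 (SE 0.53, adjusted p = 0.0783). Tgfb1, at log2 FC -0.053 (SE 0.16, adjusted p = 0.835), ranged from 30.7 to 50.2 CPM with a median of 36.4 and from 27.7 to 48.0 CPM with a median of 36.0, and its genotypes overlapped almost entirely. Within D316A-Tg on HFD, Tgfb1 was 27.7 to 48.0 CPM in the lymphocyte-rich and 34.2 to 37.8 CPM in the lymphocyte-poor libraries. The lymphocyte-rich WT-Tg 3 was at 43.0 CPM, inside the range of the other WT-Tg libraries.

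Of the other matrix genes 98 were tested on HFD, of which 10 were lower and 0 higher in D316A-Tg. These included 5 of 15 other metalloproteinases, namely Mmp15 (-0.41), Mmp19 (-0.50) and the related proteases Adam12 (-1.30), Adamts1 (-1.09) and Adamts4 (-1.67), of which Mmp19 stands beyond the 4 named per list and was added after its value was seen. The collagen-processing genes Pcolce (-0.98, a procollagen C-proteinase enhancer), Fkbp10 (-0.98) and Crtap (-0.51), the collagen IV chain Col4a5 (-1.50) and the proteoglycan Lum (-1.88, lumican) were the other 5. With the lymphocyte term 2 of 99 were lower. The lists of laminins (10 tested), elastic fibre genes (14), the transforming growth factor beta pathway (12) and receptors (10) held no called gene on HFD.

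**Figure D3:**
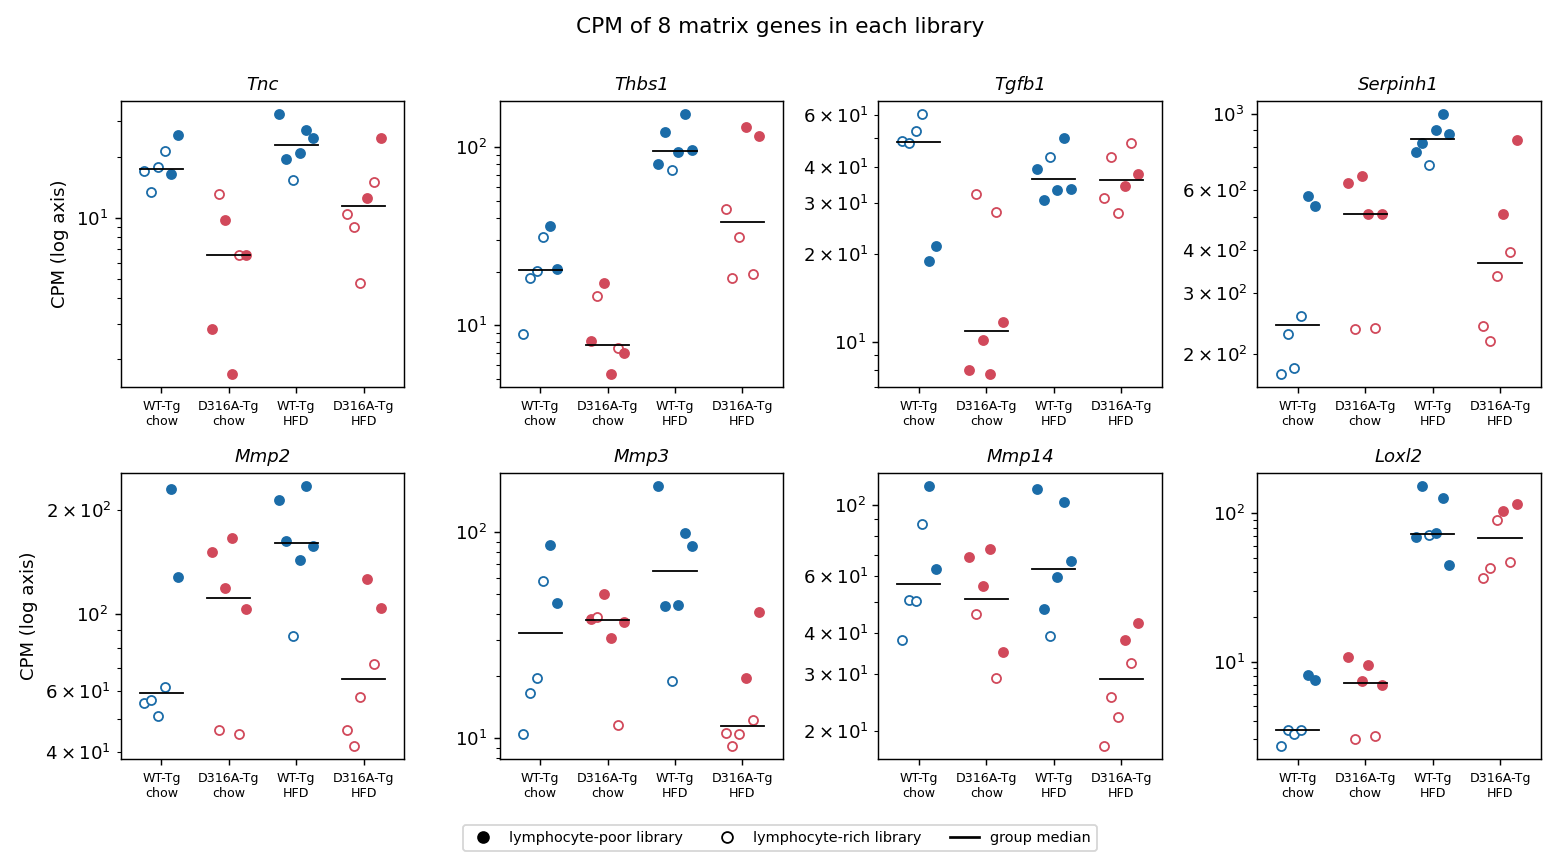
CPM on a log axis (vertical axis) of Tnc, Thbs1, Tgfb1, Serpinh1, Mmp2, Mmp3, Mmp14 and Loxl2 in the 24 libraries, by group (horizontal axis); filled points are lymphocyte-poor libraries, open points lymphocyte-rich libraries and lines group medians. Tnc separates the genotypes on chow, Mmp14 of D316A-Tg on HFD lies at 17.9 to 43.0 CPM, and Loxl2 lies at 2.69 to 8.07 CPM in WT-Tg on chow against 44.9 to 153 CPM on HFD.

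Whether the D316A effect differed between the diets was tested by the interaction of genotype and diet over all 24 libraries. The HFD and chow groups differed also in age, in count table and in base-calling software, so a difference between diets cannot be told apart from these. Serpinh1 (ENSMUSG00000070436, chromosome 7, 99345376 to 99353239, minus strand) was the 1 gene of the 32 that passed (1 lower, 0 higher), where 6.86% of 16072 genes were called lower and 6.08% higher. Serpinh1 was at log2 FC 0.44 on chow and -1.01 on HFD, and the difference of these log2 FC was -1.44 (SE 0.47, adjusted p = 0.0467). On chow it ranged from 174 to 577 CPM with a median of 243 in WT-Tg and from 236 to 658 CPM with a median of 511 in D316A-Tg, with the 4 lymphocyte-rich WT-Tg libraries at 174 to 258 CPM and the 2 others at 537 to 577 CPM. With the lymphocyte term its difference was -0.76 (SE 0.26, adjusted p = 0.0859) and 0 of the 32 genes were called, where 2.48% of genes were called lower and 3.96% higher. Of the skeletal muscle markers 11 of 12 had a higher D316A effect on HFD than on chow, and with their score as a covariate Serpinh1 was at -1.67 (SE 0.64, adjusted p = 0.115), where 0 of the 32 and 1.65% of all genes were called. The call also ended when any 1 of 18 libraries was left out (WT-Tg 1, 2, 3 or 4 or D316A-Tg 7, 9, 10 or 12 on chow, and WT-Tg 1, 2, 4, 5 or 6 or D316A-Tg 7, 8, 9, 10 or 11 on HFD), with differences of -1.76 to -1.32.

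The other members nearest to the threshold, given as the same difference, were Col12a1 at -1.65 (SE 0.58, adjusted p = 0.0621), Tgfb1 at 1.39 (SE 0.51, adjusted p = 0.0733) and Mmp3 at -1.89 (SE 0.74, adjusted p = 0.0867), none of which passed, so that a different D316A effect on the 2 diets was not shown for them. Col3a1 was at -1.20 (SE 0.56, adjusted p = 0.146), Postn at -1.98 (SE 0.85, adjusted p = 0.116), Timp1 at -0.90 (SE 0.89, adjusted p = 0.494) and Col4a2 at -0.67 (SE 0.57, adjusted p = 0.422). The median difference of the 32 genes was -0.72 against 0.072 over all genes, and with the lymphocyte term 0.025 against 0.020. In the lymphocyte-poor libraries alone, with 2 libraries in each of 2 groups, Col5a1, Col15a1, Col6a2 and Tgfb1 had a higher D316A effect on HFD than on chow and 0 of the 32 a lower one, where 4.16% of genes were called higher and 5.23% lower. Leaving out WT-Tg 5 on chow gave 6 calls, with 20.5% of all genes called, and leaving out D316A-Tg 12 on HFD gave 5, with 17.98%. Leaving out D316A-Tg 8 or 11 or WT-Tg 6 on chow or WT-Tg 3 on HFD gave 2, with 14.6 to 26.5%. Of 100 other matrix genes tested, Adam12 (-2.08), Plod2 (-1.39, a collagen lysyl hydroxylase), Lum (-1.95), Itgav (-0.57) and Itga1 (-0.92) had a lower and Tgfb3 (0.85) a higher D316A effect on HFD than on chow.

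In WT-Tg, 21 of the 32 genes were higher on HFD than on chow and 0 were lower, beside 28.7% of the 15018 genes tested called higher and 33.3% lower. All 4 chaperone and crosslinking genes and all 4 basement membrane chains were higher, as were 3 of 6 fibrillar chains, 4 of 5 chains of collagen VI and fibril-associated collagens, 4 of 6 matricellular genes and 2 of 3 inhibitors, and 0 of 3 metalloproteinases. The median log2 fold change of the 32 was 1.03 against -0.056 over all genes. HFD and chow groups differed also in age, in count table and in base-calling software, so diet cannot be told apart from these. This comparison shares its WT-Tg libraries with the genotype comparisons above. In the same comparison 10 of 11 skeletal muscle and 7 of 9 T lymphocyte markers were lower on HFD and 3 of 8 macrophage markers were higher.

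Loxl2 (ENSMUSG00000034205, chromosome 14, 69609068 to 69695834, plus strand), a lysyl oxidase that crosslinks collagen IV among other substrates, had the largest difference of the 32 genes. It ranged from 2.69 to 8.07 CPM with a median of 3.45 on chow and from 44.9 to 153 CPM with a median of 72.4 on HFD, at log2 FC 4.20 (SE 0.39, adjusted p = 2.37e-06), with every HFD library above every chow library. Col12a1 ranged from 3.11 to 7.09 CPM with a median of 4.39 and from 28.1 to 84.5 CPM with a median of 37.4, and Lox, the founding lysyl oxidase, from 22.9 to 99.0 CPM with a median of 35.7 and from 330.5 to 598 CPM with a median of 414. Both were also separate, at log2 FC 3.24 (SE 0.30, adjusted p = 2.29e-06) and log2 FC 3.03 (SE 0.37, adjusted p = 2.16e-05). In 11 of the 32 genes all 6 HFD libraries lay above all 6 chow libraries, namely Loxl2, Lox, Serpinh1, Col12a1, Col5a2, Col4a1, Col4a2, Col15a1, Col18a1, Sparc and Thbs1, as they did in 20.2% of all genes tested. Serpinh1 was at log2 FC 1.33 (SE 0.30, adjusted p = 0.00239).

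Among the glycoproteins, Sparc ranged from 987 to 3158 CPM with a median of 1160.4 on chow and from 5254 to 8314 CPM with a median of 6979 on HFD. Sparc stood at log2 FC 1.93 (SE 0.35, adjusted p = 4.64e-04). Thbs1 was at log2 FC 2.14 (SE 0.30, adjusted p = 7.26e-05) and Thbs2, its relative that limits vessel growth, at log2 FC 1.32 (SE 0.27, adjusted p = 0.00126). Postn and Tnc did not pass the test, at 0.051 (adjusted p = 0.938) and 0.27 (adjusted p = 0.230) with edgeR. Of the collagens, Col4a2 ranged from 276 to 877 CPM with a median of 317 and from 1348 to 1905 CPM with a median of 1666, at log2 FC 1.68 (SE 0.33, adjusted p = 9.11e-04), Col15a1 was at log2 FC 1.58 (SE 0.35, adjusted p = 0.00195), Col18a1 at log2 FC 1.59 (SE 0.34, adjusted p = 0.00165) and Col5a2, of fibril-regulating collagen V, at log2 FC 1.62 (SE 0.36, adjusted p = 0.00211). The collagen I chains did not pass, with Col1a1 at log2 FC 0.88 (SE 0.38, adjusted p = 0.0609) and Col1a2 at log2 FC 0.64 (SE 0.34, adjusted p = 0.116).

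Lymphocyte-rich libraries were 4 of 6 on chow and 1 of 6 on HFD in WT-Tg. With the lymphocyte term 17 of the 32 genes were higher and 0 lower, where 25.7% of genes were called higher and 28.8% lower. In the lymphocyte-poor libraries alone, 2 on chow and 5 on HFD, 15 were higher and 0 lower, beside 25.9% of genes that were higher and 25.4% that were lower, and the median of the 32 was 0.57 against -0.012 over all genes. There Sparc was at log2 FC 1.23 (SE 0.19, adjusted p = 0.00106), Serpinh1 at log2 FC 0.66 (SE 0.12, adjusted p = 0.00287) and Col4a2 at log2 FC 0.95 (SE 0.15, adjusted p = 0.00136). All 4 basement membrane chains were still called, with Col4a1 at log2 FC 0.63 against 1.36 in all 12 libraries, Col15a1 at 0.80 and Col18a1 at 0.84. Col5a2 was at 0.84, Col5a1 at 0.51 against 1.24, and Col6a1 at 0.0084 against 0.53. Loxl2, Lox and Col12a1 were at log2 FC 3.601 (SE 0.59, adjusted p = 0.00241), log2 FC 2.29 (SE 0.23, adjusted p = 1.39e-04) and log2 FC 3.27 (SE 0.53, adjusted p = 0.00219).

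The metalloproteinases did not pass the test in this comparison, with Mmp3 at log2 FC 0.91 (SE 0.58, adjusted p = 0.192), Mmp2 at log2 FC 0.73 (SE 0.39, adjusted p = 0.121) and Mmp14 at log2 FC 0.024 (SE 0.31, adjusted p = 0.953). Timp1 was at log2 FC 1.22 (SE 0.55, adjusted p = 0.0688) and Tgfb1, the single member with a negative value, at log2 FC -0.20 (SE 0.28, adjusted p = 0.560). Tgfb1 had the opposite sign once lymphocyte-rich libraries were accounted for, at log2 FC 0.46 (SE 0.23, adjusted p = 0.112) with the term and log2 FC 0.90 (SE 0.19, adjusted p = 0.00471) in the lymphocyte-poor libraries, where it was 18.9 to 21.4 CPM on chow and 30.7 to 50.2 CPM on HFD.

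**Figure D4:**
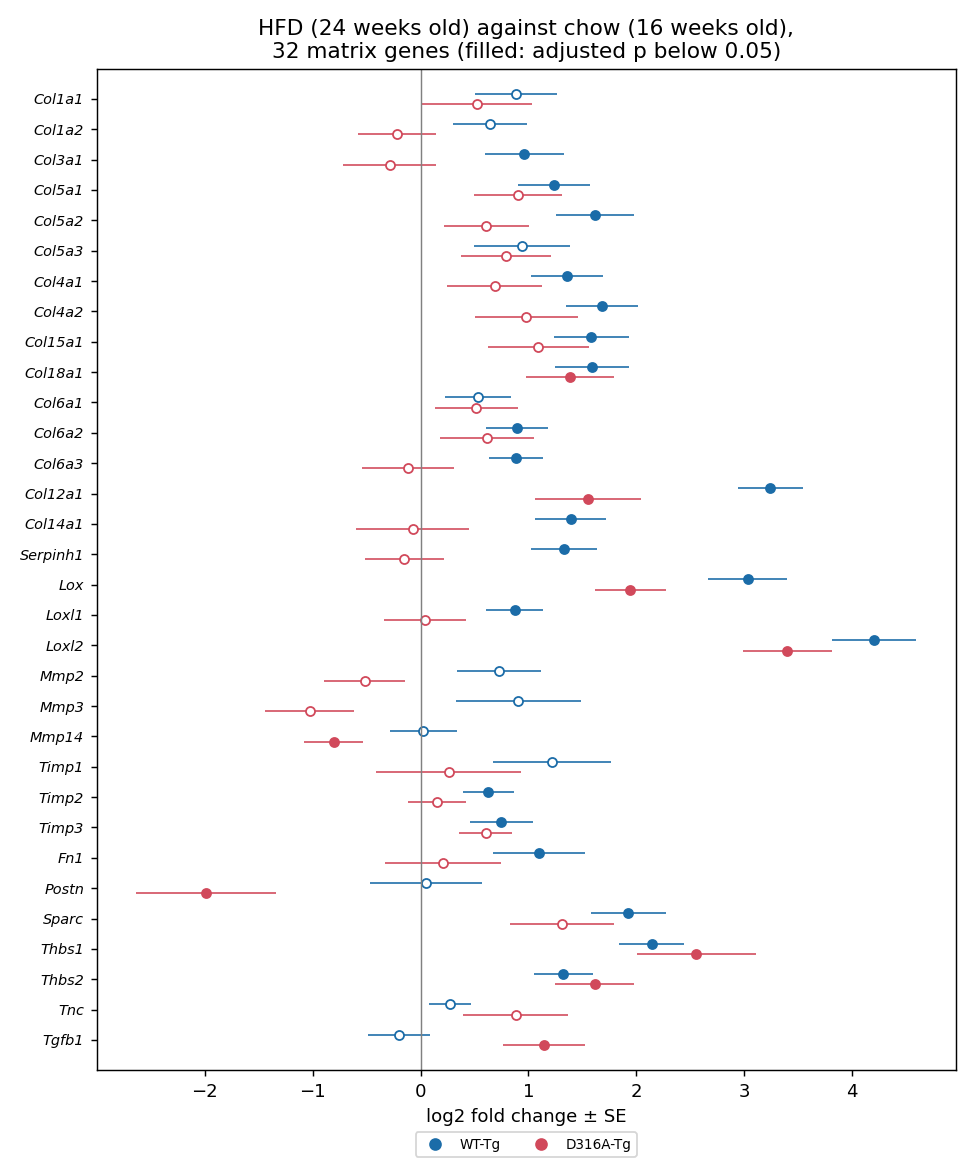
Log2 fold change with its SE (horizontal axis) of HFD at 24 weeks of age against chow at 16 weeks for each of the 32 genes (vertical axis), in WT-Tg (blue) and D316A-Tg (red); filled points have an adjusted p below 0.05. In WT-Tg 21 points are filled, all to the right of 0, and in D316A-Tg 9, of which Postn and Mmp14 lie to the left.

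Of 98 other matrix genes tested in WT-Tg, 55 were higher and 9 lower on HFD. By list, 10 of 17 collagen-modifying enzymes, 3 of 11 other collagens, 5 of 10 laminins and their partners, 7 of 14 elastic fibre genes, 7 of 9 proteoglycans, 8 of 15 other metalloproteinases, 7 of 12 genes of the transforming growth factor beta pathway and 8 of 10 receptors were higher. Named from each list are those called with the smallest adjusted p, with their log2 fold changes. Of the collagen-modifying enzymes these were Pcolce2 (3.53), Loxl4 (1.58), Adamts2 (1.83, a procollagen N-proteinase) and P3h1 (0.91, a prolyl hydroxylase), and of the other collagens Col16a1 (1.76), Col8a1 (1.58) and, lower on HFD, Col27a1 (-1.75) and Col7a1 (-3.03). Of the basement membrane partners Nid1 (1.56, nidogen), Hspg2 (1.28, perlecan) and Lamc1 (0.90, a laminin chain) were higher and Agrn (-0.85, agrin) lower. The elastic fibre genes Fbln2 (1.91), Fbln5 (1.68), Mfap4 (2.43) and Mfap5 (1.56) and the proteoglycans Prelp (2.68), Aspn (1.95) and Bgn (1.30) were higher, and Podn (-1.33) was lower. Of the metalloproteinases Adam12 (1.94), Mmp13 (2.69, a collagenase), Adamts5 (2.53) and Adam10 (0.73) were higher, as were the signalling genes Smad2 (0.38), Smad4 (0.34) and Tgfbr1 (0.77) and the receptors Itgav (1.38), Ddr1 (1.42), Itga1 (1.28) and Mrc2 (3.25, a collagen uptake receptor).

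In D316A-Tg, 7 of the 32 genes were higher and 2 lower on HFD than on chow, beside 14.1% of the 14752 genes tested called higher and 16.7% lower. The higher genes were Loxl2, Lox, Thbs1, Thbs2, Col18a1, Col12a1 and Tgfb1, and the lower genes were Postn and Mmp14. The median of the 32 was 0.61 against -0.026 over all genes. Loxl2 ranged from 3.01 to 10.7 CPM with a median of 7.17 on chow and from 36.5 to 115 CPM with a median of 68.4 on HFD, at log2 FC 3.40 (SE 0.41, adjusted p = 4.58e-05), and Lox from 32.3 to 87.8 CPM with a median of 64.0 and from 135 to 416 CPM with a median of 204. Lox stood at log2 FC 1.94 (SE 0.33, adjusted p = 7.74e-04). These 2 genes, Thbs1 and Thbs2 had all 6 HFD libraries above all 6 chow libraries (4 of 32), as had 8.24% of all genes tested. Thbs1 was at log2 FC 2.55 (SE 0.55, adjusted p = 0.00434), Thbs2 at log2 FC 1.61 (SE 0.37, adjusted p = 0.00590), Col18a1 at log2 FC 1.38 (SE 0.41, adjusted p = 0.0225) and Col12a1 at log2 FC 1.55 (SE 0.49, adjusted p = 0.0297).

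Tgfb1 ranged from 7.74 to 32.2 CPM with a median of 10.9 on chow and from 27.7 to 48.0 CPM with a median of 36.0 on HFD. Tgfb1 stood at log2 FC 1.15 (SE 0.38, adjusted p = 0.0370). Postn ranged from 82.5 to 874 CPM with a median of 289 and from 39.1 to 238 CPM with a median of 55.1, at log2 FC -1.99 (SE 0.65, adjusted p = 0.0361), with overlap in the upper HFD and lower chow libraries, and Mmp14 from 29.1 to 72.7 CPM with a median of 51.0 and from 17.9 to 43.0 CPM with a median of 28.9. Mmp14 stood at log2 FC -0.81 (SE 0.27, adjusted p = 0.0394). Mmp3 (-1.03), Timp3 (0.60) and Col5a1 (0.91), the genes with the largest values of their classes, did not pass. The WT-Tg and D316A-Tg values are set side by side here, since the test of their difference is the interaction above, which only Serpinh1 passed.

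Here too the count moved with the lymphocyte-rich libraries, which were 2 of 6 on chow and 4 of 6 on HFD. With their term 18 of the 32 genes were higher and 3 lower, where 21.5% of genes were called higher and 19.5% lower. The lower genes were then Postn at log2 FC -1.43 (SE 0.40, adjusted p = 0.0147), Mmp3 at log2 FC -0.83 (SE 0.30, adjusted p = 0.0454) and Mmp14 at log2 FC -0.59 (SE 0.22, adjusted p = 0.0444), and all 4 basement membrane chains were higher, for example Col4a2 at log2 FC 1.39 (SE 0.19, adjusted p = 1.47e-04). Col1a1 was at log2 FC 0.95 (SE 0.24, adjusted p = 0.00884) and its partner Col1a2 at log2 FC 0.19 (SE 0.20, adjusted p = 0.468). Skeletal muscle markers were higher on HFD in D316A-Tg (11 of 12), and with their score as a covariate 2 of the 32 genes, Loxl2 and Lox, and 12.9% of all genes were called. Of the calls that ended there, Thbs1, Thbs2, Col18a1, Col12a1 and Tgfb1 were at log2 FC 2.56, 1.46, 1.98, 1.76 and 1.09, and Postn and Mmp14 at -0.77 and -0.41. Leaving out D316A-Tg 7, 9 or 10 on chow or D316A-Tg 10 on HFD gave 5 calls, with 24.0 to 26.7% of all genes called. The calls of Loxl2, Lox, Thbs1 and Thbs2 held with each library left out, while the other 5 did not. The call of Col18a1 ended without D316A-Tg 10 or 12 on HFD, and that of Col12a1 without 7, 9, 10 or 11 on chow or 10 or 12 on HFD. That of Mmp14 ended without 7, 9 or 10 on chow or 7, 8, 9 or 11 on HFD, that of Postn without 7, 9 or 10 on chow or 7, 8, 9, 10 or 11 on HFD, and that of Tgfb1 without 7, 9, 10 or 12 on chow or 8, 10, 11 or 12 on HFD. In the lymphocyte-poor libraries alone, 4 on chow and 2 on HFD, 18 of the 32 genes were higher and 0 lower, where 22.8% of genes were called higher and 24.5% lower.

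Of 97 other matrix genes tested in D316A-Tg, 32 were higher and 3 lower on HFD. The 3 lower genes were Mmp9 (-1.88, a gelatinase), Adamts14 (-1.14) and Col27a1 (-1.05). In the transforming growth factor beta pathway 8 of 12 genes were higher and 0 lower, among them Tgfb3 (0.91), Smad3 (0.55) and Smad4 (0.41). Among collagens and basement membrane partners, Col16a1 (1.62), Col8a1 (1.17), Col6a6 (1.03), Hspg2 (1.20) and Nid1 (1.07) were higher. Higher proteoglycans were Prelp (2.61), Aspn (1.18) and Bgn (1.10), and the elastic fibre genes with the lowest adjusted p were Ltbp4 (0.80), Fbln5 (1.23), Eln (0.93) and Fbln1 (1.28), all higher. The enzymes Adamts2 (1.38) and Pcolce2 (2.12), the proteases Adamts5 (2.41) and Adam10 (0.62), the inhibitor Timp4 (1.43) and the receptors Mrc2 (2.30), Ddr1 (1.04), Itgav (0.76) and Itgb1 (0.66) were also higher.

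Chains of the same collagen type were then compared within each library, as ratios of counts per exon base, which do not depend on library scaling. The 5 pairs were chosen after levels had been seen, and 20 differences were tested with two-sided exact permutation tests over 6 against 6 libraries, whose smallest possible p is 0.00216, with Benjamini-Hochberg adjustment over the 20. The ratio of Col6a3 to Col6a2, genes for chains of collagen VI, separated the genotypes on chow, at 0.470 to 0.612 for WT-Tg against 0.713 to 0.849 for D316A-Tg, with a log2 difference of 0.48 (exact permutation adjusted p = 0.00618). The ratio of Col5a1 to Col5a2 separated them in the other direction, at 0.791 to 0.986 for WT-Tg against 0.651 to 0.774 for D316A-Tg, a difference of -0.35 (exact permutation adjusted p = 0.00618). In the lymphocyte-poor libraries alone the log2 differences were 0.62 and -0.34, where the smallest p that 2 against 4 libraries allow is 0.0667. On HFD none of the 5 ratios differed between genotypes by the adjusted test, the smallest adjusted p being 0.104 by exact permutation.

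Between HFD and chow, the ratio of Col4a1 to Col4a2, the paired chains of collagen IV that share a promoter region, was lower on HFD in both genotypes. It was 1.39 to 1.52 for WT-Tg on chow against 1.13 to 1.21 for WT-Tg on HFD (log2 difference -0.32, exact permutation adjusted p = 0.00618), and 1.43 to 1.54 for D316A-Tg on chow against 1.11 to 1.42 for D316A-Tg on HFD (-0.24, exact permutation adjusted p = 0.00618). The ratio of Col6a1 to Col6a2 was lower on HFD in WT-Tg (-0.38), and in D316A-Tg the ratio of Col6a3 to Col6a2 was lower (-0.68) and those of Col5a1 to Col5a2 (0.29) and Col1a1 to Col1a2 (0.58) were higher, with exact permutation adjusted p of 0.00618 for the other 3 and 0.0162 for Col1a1 to Col1a2. All 8 differences that passed kept their sign and an unadjusted exact permutation p below 0.05 with each library left out in turn. The highest such p was 0.0195, for Col1a1 to Col1a2 in D316A-Tg, and adjustment over the tests was not repeated there. The cohorts' counts stand in separate tables, and how reads were counted in each is not given.

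**Figure D5:**
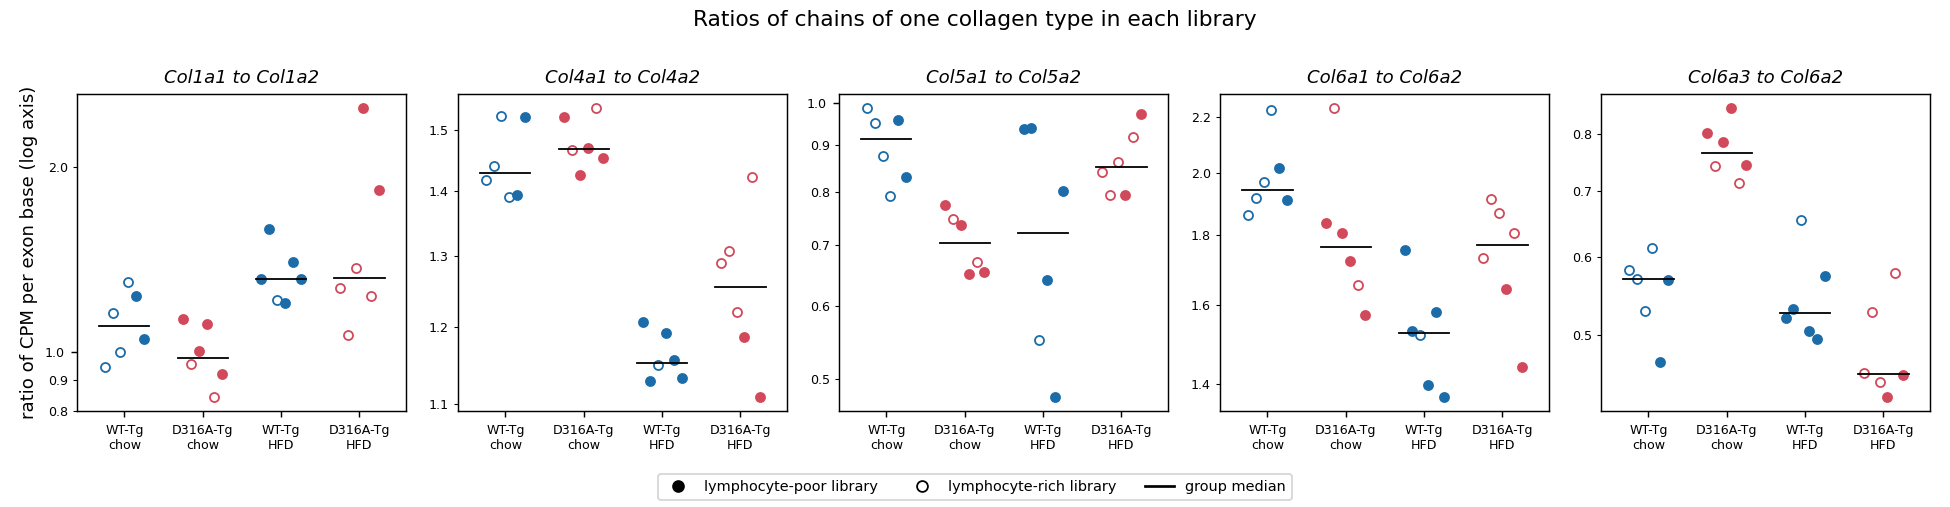
Ratio of CPM per exon base between chains of one collagen type on a log axis (vertical axis) in the 24 libraries, by group (horizontal axis); filled points are lymphocyte-poor libraries, open points lymphocyte-rich libraries and lines group medians. For Col6a3 to Col6a2 the D316A-Tg chow libraries lie at 0.713 to 0.849, above the WT-Tg chow libraries at 0.470 to 0.612.

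The pattern of Col1a1 over the 24 libraries, as log2 CPM centred on the group means, was most like that of Col1a2 and Col3a1 among the 32 genes, at Pearson r of 0.97 and 0.96, and Col6a1 followed at 0.95. Outside all lists, among 16072 genes, the 3 most like Col1a1 were Vat1 (0.95), Fap (0.95), which encodes a serine protease of activated fibroblasts, and Fstl1 (0.95), a secreted glycoprotein. These libraries share the difference in lymphocyte and muscle markers, and the values are a description of them.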

How the data were processed

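The authors deposited whole-number read counts per gene in a table for the 12 chow and a table for the 12 HFD libraries (39017 and 38483 genes, joined by identifier). Fat was freed of its lymph node before RNA extraction, RNA had an integrity number of 7 or more, and the TruSeq kit kept strand, per the labels' protocols. STAR 2.4.1, FastQC, DESeq2 and the mm10 build are named in the submitters' processing notes. Base calls of the chow libraries used bcl2fastq 2.20.0.422 and those of the HFD libraries bclfastq 2.16.0.10, per the labels. Which counter, annotation and strand setting were used is not given in the sources consulted here. Libraries of a group differed by more than sampling noise (chi-square per degree of freedom at least 13.5).

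Counts were tested across all genes with edgeR 4.0.16 in R 4.3.3 (quasi-likelihood F test, TMM, filterByExpr) and p-values were adjusted by Benjamini-Hochberg, with calls at 0.05. D316A was compared with WT within each diet, HFD with chow within each genotype, and the 4 groups by interaction. SE is that of the log2 fold change. CPM are TMM-scaled over all 24 libraries, and log2 CPM used a prior count of 2. Positions and exon lengths are from GENCODE M21, which held 96.6% of shared identifiers. An exon length joins all annotated exons of a gene, and the size of a chain ratio, unlike its difference between groups, depends on it. A library was called lymphocyte-rich where its B lymphocyte markers averaged 3.5 or more in log2 CPM. DESeq2 1.42.0, RLE scaling, no filter, marker covariates, a replicate block and leaving out each library were alternatives, and the lymphocyte-poor libraries alone were added after the data were seen.

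The members and lists were chosen with earlier results of these data known. Named genes are called members (up to 10, or the 4 lowest p where fewer than 4 were called), the largest change in each class, up to 4 called genes of each other list per comparison (lowest adjusted p), and the 3 genes most like Col1a1. Other members are named, after their values were seen, where a class or a setting is described. A gene named by this rule is not reported here. The tests of genotype within each diet and of the interaction were checked on simulated counts. These had the same dispersion for all genes and no lymphocyte or muscle differences between libraries, so the check does not cover such differences.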

Additional observations from a re-analysis of the deposited data

Results flagged for a closer look

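Among the 6 libraries of a group, 3 values lay far from the others by Dixon's test at the 95% level, of 116 groups of values tested, where chance flags about 1 in 20. Col12a1 in D316A-Tg on HFD was 43.4 CPM in library 12 against 6.97 to 14.4 in the other 5. Mmp3 in the same library was 41.0 CPM against 9.17 to 19.5. Col5a2 in WT-Tg on HFD was 946 CPM in library 5 against 459 to 569.9. The D316A effect on Serpinh1 differed between the HFD and chow cohorts, whose ages also differed, by -1.44 on the log2 scale (HFD minus chow) in the interaction test of edgeR (adjusted p = 0.0467). With the lymphocyte term the difference was -0.76 (adjusted p = 0.0859), and the call also ended when any 1 of 18 libraries was left out. The part of library 12 and of the lymphocyte-rich libraries in these values was not tested beyond the fits given here.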

How the results depend on the processing

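The count of genes called among the 32 stayed within 1.5 times for HFD against chow in WT (21), at 15 to 29 over the alternatives and 17 to 26 when each library was left out in turn, and all of these calls were higher on HFD. With a library left out, 56.1 to 66.5% of all genes were called in either direction. At the count of 15, in the lymphocyte-poor libraries, 25.9% of all genes were called higher and 25.4% lower. In the fit that gave 21, with all 12 libraries, 28.7% of all genes were called higher and 33.3% lower. The other counts moved with the settings, and the cause was not tested. The share called among all genes with an adjusted p, in either direction, follows each count in parentheses. For D316A against WT on chow (1) the count was 0 (8.47%) with RLE scaling, 3 (2932 of 16290 genes) with DESeq2, 0 (2.13%) with no filter, 17 (27.1%) with the lymphocyte term, 0 (1.47%) with the skeletal muscle covariate, 2 (22.5%) with all 24 libraries in one fit, 9 (15.3%) in the lymphocyte-poor libraries, and 0 to 3 with a library left out. For D316A against WT on HFD (3) it was 15 (17.3%) with DESeq2, 1 (3.22%) with no filter, 0 (0.614%) with the lymphocyte term, 0 (0%) with the muscle covariate, 0 (0%) in the lymphocyte-poor libraries, and 0 to 23 with a library left out. For HFD against chow in D316A (9) it was 21 (41.0%) with the lymphocyte term, 2 (12.9%) with the muscle covariate, 18 (47.3%) in the lymphocyte-poor libraries, and 5 to 9 with a library left out. For the interaction (1) it was 4 (16.5%) with DESeq2, 0 (5.44%) with no filter, 0 (6.44%) with the lymphocyte term, 0 (1.65%) with the muscle covariate, 4 (9.39%) in the lymphocyte-poor libraries, all higher, and 0 to 6 with a library left out.

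Signs under the alternatives were checked only for the genes named by rule in each comparison, so the list below is not complete. Other members also changed sign. By the log2 ratio of mean CPM, D316A-Tg to WT-Tg, Sparc on HFD was -0.56 in all libraries and 0.30 in the lymphocyte-poor ones. Col4a1 on HFD was -0.73 and 0.082, and Sparc on chow 0.085 and -0.41, in the same order. Among the genes checked, signs changed as follows, in log2 fold changes. Col18a1 for D316A against WT on chow was 0.036 without WT-Tg 5 and otherwise reached -0.58 with a library left out. For D316A against WT on HFD, Col15a1 was 0.056 with the muscle covariate and 0.055 in the lymphocyte-poor libraries, and Tgfb1 was 0.094 with the muscle covariate, 0.039 without WT-Tg 5 and 0.022 without D316A-Tg 9, with a range of -0.14 to 0.039 over libraries left out. Tgfb1 for HFD against chow in WT was 0.46 with the lymphocyte term and 0.90 in the lymphocyte-poor libraries. The interaction value of Col4a2 was 0.062 and 0.62 in the same settings.

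Numbers in the titles of WT-Tg libraries are 1 to 6 and of D316A-Tg libraries 7 to 12, on both diets, and the ages differ, so same-numbered libraries share only a number. Their deviations from the group means correlated at -0.37 to 0.60 for the 6 WT-Tg numbers and -0.27 to 0.61 for the 6 D316A-Tg numbers, and 2 of 6 chow libraries of each genotype correlated best with their own number. With the number as a replicate block, 22 of the 32 genes were called for HFD against chow in WT and 8 in D316A, against 21 and 9 without it. Without the block, 28.7% of all genes were called higher and 33.3% lower in WT, and 14.1% and 16.7% in D316A. The share of all genes called with the block is not given here, so the 22 and 8 cannot be set against it. At 13254536 counts or more in a library, the chow levels of Timp1, Loxl2 and Col12a1 rest on few counts.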
